A study of Mus musculus with 9 samples.

Results

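The genes described here are 10 mouse genes of heterochromatin and gene silencing, measured in nuclear-transfer embryonic stem cells (ntESCs) that differ in Terc, the gene for the RNA template of telomerase. They are Morc2a, Trim28, Setdb1, Atrx, Daxx, Cbx5, Cbx1, Cbx3, Suv39h1 and Suv39h2. Every array probe that the platform annotation gives one of these symbols was taken: 15 of 25697 probes, for 9 of the 10 genes. Suv39h1 has 0 probes, so no expression value is given for it. Atrx has 4 probes, Suv39h2 has 3 and Cbx5 has 2. Where a gene has several, its brightest probe over all arrays stands for it, as it did in the test across 18666 features (16110 named genes and the probes without a gene). The group was put together around Morc2a, which was selected on its measured difference between Terc-/- and Terc+/+ cells in these same arrays. That difference is therefore given below as a description and supports nothing.

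Total RNA of 9 samples was hybridised to bead arrays. There were 3 arrays of Terc-/- cells, which lack both copies of the gene, 3 of Terc+/- cells, which keep 1 copy, and 3 of Terc+/+ cells. All were C57BL/6 ntESCs, that is, pluripotent lines from embryos made with the nucleus of a somatic cell, grown with LIF in serum-free medium on fibroblasts stopped with mitomycin-C. The fibroblasts were removed before extraction. The labels call the samples of a genotype biological repeats but do not say whether they are separate lines or cultures of 1 line, so the p-values measure only the spread between these samples. The array table holds no probe named Terc, so the genotypes rest on the labels.

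All values below are the log2 values that the authors deposited. They run from 5.11 to 14.8, and every array has a median of 5.94, so a value near 6 is that of an ordinary dim probe. Of 18 embryonic stem cell markers, 17 were measured and all averaged above 6 (Pou5f1 12.04, Esrrb 12.87). Their summed linear signals were 49890 to 56160 in Terc-/-, 51860 to 59310 in Terc+/- and 43750 to 60190 in Terc+/+ arrays. In Terc-/- against Terc+/+ cells limma called 1 of the 17 at an adjusted p under 0.05, against 0.0536% of all features. At an unadjusted p under 0.05, 4 were higher and 4 lower, against 5.3% and 5.31% of features. In Terc+/- against Terc+/+ cells limma called 0, and 4 were higher and 1 lower at that p, against 4.73% and 3.86%. A sum does not show such opposite differences. Of 32 fibroblast markers, 29 were measured, and 28 of these averaged above 6. Their summed signals were 25800 to 76180 in Terc-/-, 13920 to 60460 in Terc+/- and 8950 to 63500 in Terc+/+ arrays. No deposited value is below 5.11, so a summed signal does not show that every marker in it was expressed. The array of Terc+/+ replicate 3 stands apart. It was the lowest of the 9 arrays for 20.9% of all features and the highest for 23.5%. It had the lowest value for 25 of the 29 fibroblast markers and for 8 of the 17 stem cell markers. The summed signals of both lists were lowest in it, and a quality weighting of the arrays gave it the lowest weight (0.214, against 0.625 to 7.01 for the others). Every comparison of a member with Terc+/+ by its brightest probe is therefore given with and without it. Other probes of a member are given with all arrays only.

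The heterochromatin meant here is compact chromatin marked by trimethylation of lysine 9 of histone H3. SETDB1 and the SUV39H enzymes write the mark, and the HP1 proteins read it with their chromodomain. In embryonic stem cells TRIM28, brought to DNA by zinc finger proteins with a KRAB domain, recruits SETDB1 to endogenous retroviruses, while ATRX and DAXX deposit the histone variant H3.3 at telomeres, pericentric repeats and retroviruses. MORC2A is the mouse form of MORC2, an ATPase that in human cells works with the HUSH complex to compact and silence such loci.

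Promoter sequences from RefSeq (mouse build GRCm38.p6) are shown for the genes on which the comparisons turn. Each runs from 250 bases before to 50 bases after a start site and is printed in the direction of transcription. Capitals mark the GC box GGGCGG, the ETS core CCGGAAG, the YY1 motif AAGATGGC and the NRF1 motif GCATGCGC on either strand. A match is a description of the letters only. The table holds windows for all 10 genes, 16 in all. A GC box was found in at least 1 window of 9 of the 10 genes, and it was present in 35.7% of the 32851 windows of the whole table. A gene counts if any of its windows matches, while the shares are per window. The figures are therefore not like for like, here and for the motifs below. The ETS core was found in 2 of the 10 genes, Setdb1 and Daxx, and in 8.86% of all windows. The YY1 and NRF1 motifs, in 2.75% and 2.71% of all windows, match none of the 5 windows printed here. The YY1 motif was found in 2 of the 10 genes, Suv39h1 and Suv39h2, whose windows are not printed, and the NRF1 motif in none. Also searched on both strands, and left in lower case, were CCAAT (37.4% of all windows), the E2F motif TTTCCCGC (1.07%), the CRE TGACGTCA (1.79%) and TATAAA (13.6%). The median window of the table holds 7 CG pairs, while those of the 10 genes hold 0 to 46.

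Morc2a was higher in Terc-/- than in Terc+/- cells and higher in Terc+/- than in Terc+/+ cells, with no overlap between the arrays of the 3 genotypes. Its first promoter window (chr11:3649187-3649486, plus strand) holds 46 CG pairs, more than 98.4% of all windows, and 2 overlapping GC boxes. A second window (chr11:3658422-3658721, plus strand) has a GC content of 28.3%, against 70.3% in the first, and holds 0 CG pairs.
Morc2a first window: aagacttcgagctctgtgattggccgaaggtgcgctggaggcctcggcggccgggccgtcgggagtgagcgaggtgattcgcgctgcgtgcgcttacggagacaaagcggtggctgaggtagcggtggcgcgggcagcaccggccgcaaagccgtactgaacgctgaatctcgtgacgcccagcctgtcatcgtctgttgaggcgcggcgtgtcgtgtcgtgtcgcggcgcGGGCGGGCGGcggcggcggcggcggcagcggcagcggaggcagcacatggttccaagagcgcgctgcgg

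The Morc2a probe (2030162) read 10.03, 10.10 and 9.97 in Terc-/- arrays, 9.91, 9.77 and 9.77 in Terc+/- arrays, and 9.45, 9.39 and 9.34 in Terc+/+ arrays. Its arrays lay close together within each genotype, and Terc+/+ replicate 3, its lowest array, stood close to the other Terc+/+ arrays. It averaged 10.03 ± 0.06 in Terc-/-, 9.82 ± 0.08 in Terc+/- and 9.39 ± 0.06 in Terc+/+ cells (SD, n = 3 each). The log2 difference of Terc-/- from Terc+/+ was 0.64 (SE 0.07, 1.56-fold), and its limma adjusted p of 0.0458 is the value that put the gene forward, so it is no test here. Without Terc+/+ replicate 3 the difference was 0.61. In bulk RNA, a different number of cells of a type and a different amount of RNA per cell cannot be told apart.

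The difference of Terc+/- from Terc+/+, which shares its Terc+/+ arrays with the comparison that chose the gene, was 0.42 (SE 0.07, 1.34-fold). It did not pass the threshold (limma adjusted p = 0.154), nor without Terc+/+ replicate 3 (0.40, limma adjusted p = 0.0919). The difference of Terc-/- from Terc+/- was 0.22 (SE 0.07, 95% interval 0.055 to 0.38), with a limma adjusted p of 1.00. Only 38 of the 18666 features (0.204%) had the 3 genotypes apart in the order seen for Morc2a, and 0.0964% in the opposite order; since Morc2a was chosen by a part of that order, nothing is read from this. Among the 9 genes, Morc2a alone had Terc-/- arrays wholly above Terc+/- arrays, as did 3.76% of features, and 0 genes had them wholly below, as did 3.94%. The comparison that chose Morc2a used the same Terc-/- arrays, so neither this nor its difference of 0.22 is independent of that choice. The fibroblast score of an array, the mean deviation of the 29 markers from their means over the 9 arrays, was -0.19, 0.087 and 1.21 in Terc-/-, 0.89, -0.76 and -0.88 in Terc+/-, and -0.045, 1.02 and -1.34 in Terc+/+ arrays. With that score as a covariate the Morc2a differences from Terc+/+ were 0.63 in Terc-/- and 0.43 in Terc+/- cells. With the covariate the second had a limma adjusted p of 0.0439. In Terc+/- against Terc+/+ cells that fit called 236 of the 18666 features, where the fit without the covariate called 0. Whether fibroblast content bears on the Morc2a differences was not tested.

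**Figure D1:**
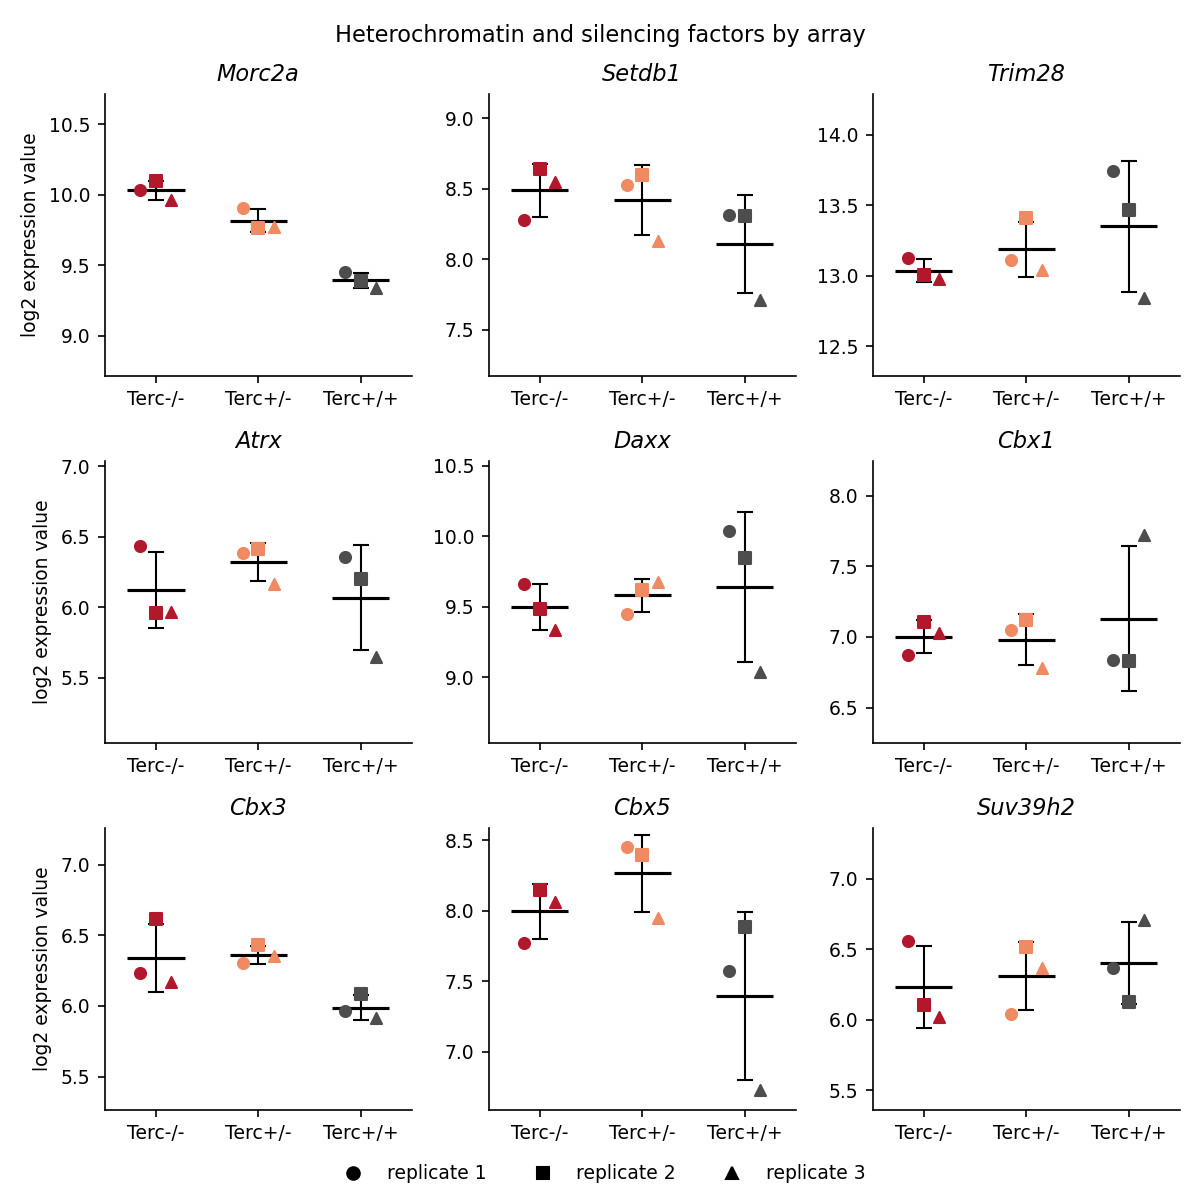
Deposited log2 values of the 9 measured genes on each array, by genotype; markers tell replicates apart, bars are the mean ± SD (n = 3), and every panel spans the same number of log2 units. The 3 genotypes separate for Morc2a, which was chosen on a part of that order, and Terc+/+ replicate 3 is the lowest array in 7 panels and the highest in 2.

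Over the 9 measured genes, Terc+/+ replicate 3 was the lowest array in 7 (Morc2a, Setdb1, Trim28, Atrx, Daxx, Cbx3 and Cbx5) and the highest in the other 2 (Cbx1 and Suv39h2). In Terc-/- against Terc+/+ cells, 5 genes were higher and 4 lower, and 1 was called at an adjusted p under 0.05, Morc2a itself, while 0.0536% of all features were called. The array-weighted limma fit, in which Terc+/+ replicate 1 has a weight of 7.01, called 4 (Morc2a, Trim28, Daxx and Cbx3) and 16.1% of all features. The median log2 difference of the 9 genes in the fit of equal weights was 0.054, against 0.0048 over all features, and 0.17 without Terc+/+ replicate 3. In Terc+/- against Terc+/+ cells, 5 were higher and 4 lower and 0 were called, as were 0.0% of all features. At an unadjusted p under 0.05, 3 of the 9 were higher (Morc2a, Cbx3 and Cbx5) and 0 lower, while 4.73% of all features were higher and 3.86% lower. The array-weighted limma fit called 1, Morc2a, and 3.44% of all features. The median of the 9 genes in the fit of equal weights was 0.25, against 0.0042 over all features, and 0.11 without Terc+/+ replicate 3. In Terc-/- against Terc+/- cells, 3 were higher and 6 lower and 0 were called, as were 0.0% of all features. Only Morc2a had an unadjusted p under 0.05, where 0.814% of features were higher and 0.943% lower, and the array-weighted fit called 0 members and 0.0% of features. The comparisons with Terc+/+ share those 3 arrays, so their values for a gene are not independent. Morc2a was chosen on its difference between Terc-/- and Terc+/+ cells, so its place in these counts is no result.

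**Figure D2:**
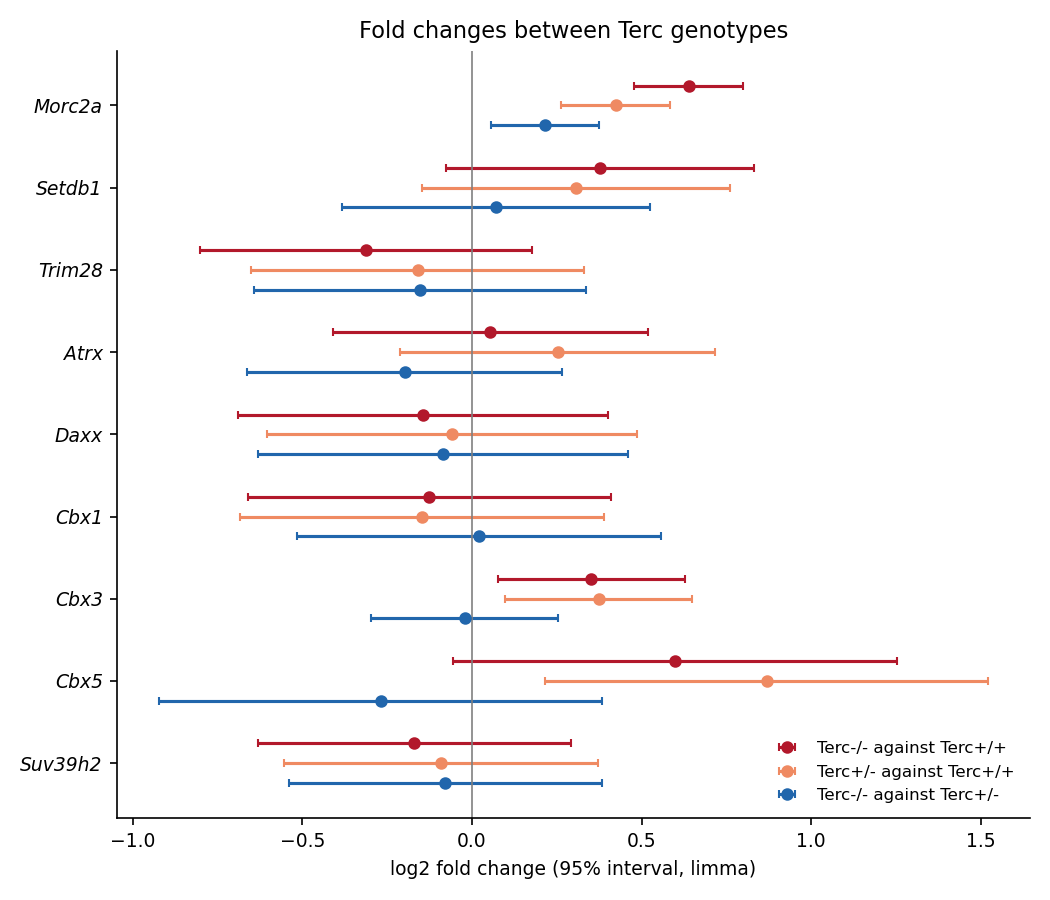
Log2 differences of the 9 genes in the 3 comparisons between genotypes; points are limma estimates and lines their 95% intervals. The intervals of Morc2a lie above 0 in all 3 comparisons, those of Cbx3 in both comparisons with Terc+/+, and that of Cbx5 in Terc+/- against Terc+/+. Morc2a was chosen on Terc-/- against Terc+/+, and the other comparisons share arrays with that one, so its intervals are no result.

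Trim28 and Setdb1 encode the corepressor and the histone methyltransferase that it recruits. Neither was called in any comparison of the genotypes. Trim28 was lower, and Setdb1 higher, on average in both mutant genotypes than in Terc+/+ cells, but the arrays overlapped and Terc+/+ replicate 3 was the lowest array for both genes. The Trim28 window (chr7:13023902-13024201, plus strand) holds 23 CG pairs and 2 GC boxes.
Trim28: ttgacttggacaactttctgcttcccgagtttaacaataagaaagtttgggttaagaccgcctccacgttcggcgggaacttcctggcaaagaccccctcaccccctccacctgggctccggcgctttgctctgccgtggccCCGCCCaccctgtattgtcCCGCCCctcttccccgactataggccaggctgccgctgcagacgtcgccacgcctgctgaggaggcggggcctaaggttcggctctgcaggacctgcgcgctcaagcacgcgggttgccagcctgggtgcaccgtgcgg

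The Trim28 probe (3310139) read 13.13, 13.00 and 12.98 in Terc-/- arrays, 13.11, 13.41 and 13.04 in Terc+/- arrays, and 13.74, 13.46 and 12.84 in Terc+/+ arrays. Terc+/+ replicates 1 and 2 were thus the highest of the 9 arrays and Terc+/+ replicate 3 the lowest. It averaged 13.04 ± 0.08 in Terc-/-, 13.19 ± 0.20 in Terc+/- and 13.35 ± 0.46 in Terc+/+ cells (SD, n = 3 each). The log2 difference from Terc+/+ was -0.31 in Terc-/- cells (SE 0.21, 95% interval -0.80 to 0.18, limma adjusted p = 0.693) and -0.16 in Terc+/- cells (SE 0.21, limma adjusted p = 0.911). Without Terc+/+ replicate 3 it was -0.57 in Terc-/- (SE 0.13, limma adjusted p = 0.0832) and -0.41 in Terc+/- cells (SE 0.13, limma adjusted p = 0.223), and no mutant array reached the remaining Terc+/+ arrays. Without Terc+/+ replicate 1, its highest array, it was -0.12 in Terc-/- (limma adjusted p = 0.921) and 0.036 in Terc+/- cells (limma adjusted p = 0.990), so the size and, in Terc+/- cells, the sign depend on which Terc+/+ array is left out. The array-weighted fit, which rests most on that same array, gave -0.67 in Terc-/- cells (limma adjusted p = 0.0106) and called 16.1% of all features.

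The Setdb1 probe (4200746) read 8.27, 8.64 and 8.55 in Terc-/- arrays, 8.52, 8.59 and 8.13 in Terc+/- arrays, and 8.32, 8.30 and 7.71 in Terc+/+ arrays. The Terc+/+ arrays lay within the range of Terc+/- arrays except for replicate 3. It averaged 8.49 ± 0.19 in Terc-/-, 8.42 ± 0.25 in Terc+/- and 8.11 ± 0.35 in Terc+/+ cells (SD, n = 3 each). Relative to Terc+/+, the log2 difference was 0.38 in Terc-/- cells (SE 0.20, 95% interval -0.075 to 0.83, limma adjusted p = 0.569) and 0.31 in Terc+/- cells (limma adjusted p = 0.765). Without Terc+/+ replicate 3 it was 0.18 in Terc-/- and 0.11 in Terc+/- cells.

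Daxx and Atrx encode the histone chaperone and the ATPase that place H3.3 at telomeres and other repeats. Neither was called in any comparison. Daxx ran like Trim28 over the arrays: Terc+/+ replicates 1 and 2 were its highest arrays and Terc+/+ replicate 3 its lowest. Atrx was dim, with values of all 4 probes at 6.43 or less. Daxx has 3 windows that overlap, and the first (chr17:33909195-33909494, plus strand) holds 33 CG pairs, 3 GC boxes of which 2 overlap, and 2 ETS cores.
Daxx first window: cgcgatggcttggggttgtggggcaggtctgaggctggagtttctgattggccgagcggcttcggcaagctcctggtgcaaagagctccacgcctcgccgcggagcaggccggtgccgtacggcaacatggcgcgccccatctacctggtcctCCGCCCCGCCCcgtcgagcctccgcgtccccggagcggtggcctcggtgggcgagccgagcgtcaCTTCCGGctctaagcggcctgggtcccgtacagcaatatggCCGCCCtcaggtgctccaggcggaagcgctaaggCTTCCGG

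The Daxx probe (4150369) read 9.66, 9.49 and 9.34 in Terc-/- arrays, 9.45, 9.62 and 9.67 in Terc+/- arrays, and 10.04, 9.85 and 9.04 in Terc+/+ arrays. Its spread was widest within Terc+/+, whose arrays enclosed all 6 mutant arrays. It averaged 9.50 ± 0.16 in Terc-/-, 9.58 ± 0.12 in Terc+/- and 9.64 ± 0.53 in Terc+/+ cells (SD, n = 3 each). Against Terc+/+, the fitted log2 difference was -0.14 in Terc-/- cells (95% interval -0.69 to 0.40, limma adjusted p = 0.896) and -0.059 in Terc+/- cells (limma adjusted p = 0.974). Without Terc+/+ replicate 3 it was -0.45 in Terc-/- (SE 0.12, limma adjusted p = 0.119) and -0.36 in Terc+/- cells (SE 0.12, limma adjusted p = 0.239), and no mutant array reached the remaining Terc+/+ arrays. It was 0.055 in Terc-/- and 0.14 in Terc+/- cells without Terc+/+ replicate 1, and -0.041 in Terc-/- and 0.044 in Terc+/- cells without Terc+/+ replicate 2, so the sign depends on which Terc+/+ array is left out. The array-weighted fit gave -0.50 in Terc-/- cells (limma adjusted p = 0.0268), with most weight on Terc+/+ replicate 1, the highest Daxx array, and 16.1% of all features called.

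Without Terc+/+ replicate 3, 2 of the 9 genes, Trim28 and Daxx, had all Terc-/- arrays below the Terc+/+ arrays, as did 14.8% of all features. Both also had all Terc+/- arrays below them, as did 12.2% of features. The arrays of 3 genes in Terc-/- cells (Morc2a, Cbx1 and Cbx3) and of 3 in Terc+/- cells (Morc2a, Cbx3 and Cbx5) lay above them, as did 17.5% of features in Terc-/- and 17.4% in Terc+/- cells. In that fit limma called 1 member, Morc2a, and 1.54% of all features in Terc-/- against Terc+/+ cells, and 0 members and 0.15% of features in Terc+/- against Terc+/+ cells. Because Morc2a was chosen on its difference from Terc+/+, its place in these counts is no result. With the fibroblast score as a covariate and all 9 arrays, the difference of Terc-/- from Terc+/+ was -0.36 for Trim28 and -0.19 for Daxx.

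**Figure D3:**
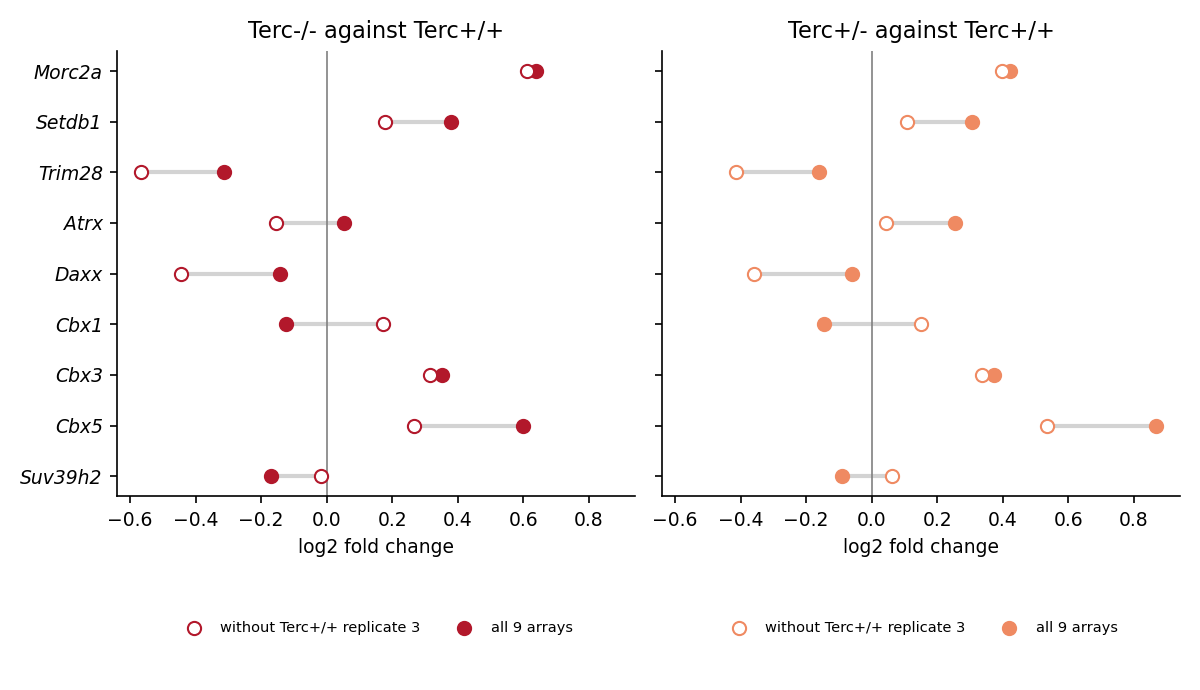
Log2 differences of the 9 genes from Terc+/+ in Terc-/- and in Terc+/- cells, with all 9 arrays (filled) and without Terc+/+ replicate 3 (open). Trim28 and Daxx lie further below 0 without that array, Setdb1 and Cbx5 closer to 0, Cbx1 changes sign in both comparisons, Atrx in Terc-/- and Suv39h2 in Terc+/- cells, and Morc2a and Cbx3 stay within 0.04.

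The brightest Atrx probe (2570437) read 6.43, 5.96 and 5.97 in Terc-/- arrays, 6.39, 6.41 and 6.16 in Terc+/- arrays, and 6.35, 6.20 and 5.65 in Terc+/+ arrays. The genotypes overlapped throughout. Set against Terc+/+, the log2 difference was 0.054 in Terc-/- cells (95% interval -0.41 to 0.52, limma adjusted p = 0.963) and 0.25 in Terc+/- cells (limma adjusted p = 0.824), but -0.16 in Terc-/- and 0.043 in Terc+/- cells without Terc+/+ replicate 3. The other 3 Atrx probes lay between 5.29 and 6.04, with differences of -0.055 to 0.060 in Terc-/- cells. Detection p-values could not be tied to samples, so whether probes as dim as those of Atrx, Cbx3 and Suv39h2 stood above background is not known.

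Cbx5, Cbx1 and Cbx3 encode the HP1 proteins alpha, beta and gamma. None was called. Cbx3 had every mutant array above every Terc+/+ array, in Terc-/- and in Terc+/- cells alike, and Cbx5 had every Terc+/- array above them. Cbx1 had no such separation. Of the 9 genes, Morc2a and Cbx3 had both mutant genotypes apart from and above Terc+/+, as did 3.48% of all features. Below Terc+/+ 0 were apart, against 2.88% of features. Morc2a was chosen on a part of this pattern, so its place in the count is no result. The first Cbx3 window (chr6:51470366-51470665, plus strand) has a GC content of 75.3% and holds 34 CG pairs and 2 GC boxes, and the first Cbx5 window (chr15:103239803-103240102, minus strand) holds 29 CG pairs and 3 GC boxes.
Cbx3 first window: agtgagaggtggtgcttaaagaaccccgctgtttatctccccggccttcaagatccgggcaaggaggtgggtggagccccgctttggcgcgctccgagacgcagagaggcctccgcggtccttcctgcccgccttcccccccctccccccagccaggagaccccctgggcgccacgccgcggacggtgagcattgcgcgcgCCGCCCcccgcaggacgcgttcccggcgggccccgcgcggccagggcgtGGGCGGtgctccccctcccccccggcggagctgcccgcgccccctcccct
Cbx5 first window: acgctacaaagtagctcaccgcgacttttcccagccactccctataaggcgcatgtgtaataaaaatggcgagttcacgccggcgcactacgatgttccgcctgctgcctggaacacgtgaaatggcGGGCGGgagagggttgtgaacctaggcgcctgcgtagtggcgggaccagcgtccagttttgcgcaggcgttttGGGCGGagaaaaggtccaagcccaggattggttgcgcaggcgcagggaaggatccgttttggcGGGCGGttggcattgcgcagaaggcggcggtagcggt

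The Cbx3 probe (3460725) read 6.23, 6.62 and 6.17 in Terc-/- arrays, 6.30, 6.43 and 6.35 in Terc+/- arrays, and 5.97, 6.08 and 5.91 in Terc+/+ arrays. The gap between the lowest mutant array and the highest Terc+/+ array was smaller than the range within Terc-/- cells. It averaged 6.34 ± 0.24 in Terc-/-, 6.36 ± 0.07 in Terc+/- and 5.99 ± 0.09 in Terc+/+ cells (SD, n = 3 each). The log2 difference from Terc+/+ was 0.35 in Terc-/- cells (SE 0.12, 1.28-fold, limma adjusted p = 0.337) and 0.37 in Terc+/- cells (SE 0.12, 1.30-fold, limma adjusted p = 0.402). In Terc-/- cells, Morc2a and Cbx3 were the 2 genes of 9 that were higher at an unadjusted p under 0.05 and 0 were lower, while 5.3% of all features were higher and 5.31% lower. These same 2 had arrays that did not overlap, as did 7.49% of features in that direction, while 0 of the 9 lay wholly below, against 7.43% of features. Morc2a was chosen on this comparison, so its place in both counts was fixed beforehand, and Cbx3 is the only other gene in them. Leaving out Terc+/+ replicate 3 gave 0.31 in Terc-/- and 0.34 in Terc+/- cells. Without Terc-/- replicate 2, its highest array, the difference in Terc-/- cells was 0.21 (limma adjusted p = 0.643). The array-weighted fit gave 0.49 in Terc-/- cells (limma adjusted p = 0.0146), where it called 16.1% of all features. Cbx3 did not differ between the mutant genotypes beyond their spread (-0.022, 95% interval -0.30 to 0.25).

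The brighter Cbx5 probe (3890519) read 7.77, 8.15 and 8.06 in Terc-/- arrays, 8.45, 8.39 and 7.95 in Terc+/- arrays, and 7.57, 7.88 and 6.73 in Terc+/+ arrays. The Terc-/- arrays overlapped with Terc+/+ replicate 2, while the Terc+/- arrays lay above all 3. It averaged 7.99 ± 0.20 in Terc-/-, 8.26 ± 0.27 in Terc+/- and 7.39 ± 0.60 in Terc+/+ cells (SD, n = 3 each). Relative to Terc+/+, the log2 difference was 0.60 in Terc-/- cells (SE 0.28, 95% interval -0.055 to 1.25, limma adjusted p = 0.520) and 0.87 in Terc+/- cells (SE 0.28, 1.83-fold, limma adjusted p = 0.416). Morc2a, Cbx3 and Cbx5 were the 3 genes of 9 whose Terc+/- arrays all lay above Terc+/+, against 7.29% of features, and 0 lay wholly below, against 5.3%. The comparison that chose Morc2a used the same Terc+/+ arrays, so its place in the count is not independent of that choice. Without Terc+/+ replicate 3 the difference of Cbx5 was 0.27 in Terc-/- and 0.54 in Terc+/- cells. With the fibroblast score as a covariate it was 0.44 in Terc-/- (limma adjusted p = 0.336) and 0.91 in Terc+/- cells (limma adjusted p = 0.0649). The array-weighted fit gave 0.48 in Terc-/- (limma adjusted p = 0.0553) and 0.70 in Terc+/- cells (limma adjusted p = 0.0560). That fit called 16.1% of all features in Terc-/- and 3.44% in Terc+/- against Terc+/+ cells. The dimmer Cbx5 probe (1690176) lay between 5.39 and 5.66 and gave 0.0042 in Terc-/- and 0.0077 in Terc+/- cells, so the probes disagree, with the second below the array medians throughout.

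The Cbx1 probe (4220086) read 6.87, 7.11 and 7.03 in Terc-/- arrays, 7.05, 7.12 and 6.78 in Terc+/- arrays, and 6.84, 6.83 and 7.72 in Terc+/+ arrays. Its one high value is Terc+/+ replicate 3, and this array sets the sign. Against Terc+/+, the fitted log2 difference was -0.13 in Terc-/- cells (95% interval -0.66 to 0.41, limma adjusted p = 0.912) and -0.15 in Terc+/- cells (limma adjusted p = 0.929), but 0.17 in Terc-/- and 0.15 in Terc+/- cells without that array.

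Suv39h2 encodes one of the enzymes that trimethylate lysine 9 of histone H3 at pericentric repeats. Its brightest probe (4230129) read 6.56, 6.10 and 6.02 in Terc-/- arrays, 6.04, 6.51 and 6.37 in Terc+/- arrays, and 6.37, 6.12 and 6.70 in Terc+/+ arrays. The genotypes overlapped fully. Set against Terc+/+, the log2 difference was -0.17 in Terc-/- cells (95% interval -0.63 to 0.29, limma adjusted p = 0.843) and -0.091 in Terc+/- cells (limma adjusted p = 0.952), and without Terc+/+ replicate 3 it was -0.018 in Terc-/- and 0.061 in Terc+/- cells. The other 2 probes lay between 5.34 and 6.08 and differed by -0.16 and -0.032 in Terc-/- cells. The probe that gave -0.16 read 6.08 in Terc+/+ replicate 3 and 5.47 to 5.58 in all other arrays.

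Genes related to these, as partners, opponents or paralogs, were taken as 8 lists of 65 genes, of which 52 were measured. None passed in any comparison at an adjusted p under 0.05. In Terc-/- against Terc+/+ cells 33 were higher and 19 lower, with a median of 0.044 against 0.0048 over all features, and 4 were higher and 1 lower at an unadjusted p under 0.05, where 5.3% of all features were higher and 5.31% lower. In Terc+/- against Terc+/+ cells 33 were higher and 19 lower, with a median of 0.068 against 0.0042, and 2 were higher and 2 lower at that p, against 4.73% and 3.86% of features. In Terc-/- against Terc+/- cells 23 were higher and 29 lower, with a median of -0.015, and 1 was higher and 0 lower at that p, against 0.814% and 0.943% of features. The array-weighted limma fit called 8 of the 52 in Terc-/- against Terc+/+ cells, where it called 16.1% of all features, 1 in Terc+/- against Terc+/+ cells, where it called 3.44%, and 0 in Terc-/- against Terc+/- cells. The genes named below had a limma adjusted p of 0.156 or more in the fit of all 9 arrays and did not pass.

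Among the H3K9 demethylases, 9 of 10 were measured, with a median difference of 0.078 in Terc-/- and 0.13 in Terc+/- cells. Kdm3a, which removes methyl groups from lysine 9 of histone H3, read 9.82, 9.78 and 9.46 in Terc-/- arrays, 9.61, 9.59 and 9.49 in Terc+/- arrays, and 9.30, 8.86 and 9.05 in Terc+/+ arrays. All 6 mutant arrays lay above the Terc+/+ arrays. The log2 difference was 0.61 in Terc-/- (SE 0.13, limma adjusted p = 0.156) and 0.49 in Terc+/- cells (limma adjusted p = 0.318). Its other probe gave 0.63 in Terc-/- and 0.56 in Terc+/- cells. Jmjd1c, a relative of Kdm3a, was singled out after its values were seen because it was the 1 gene of the lists called without Terc+/+ replicate 3, in a fit that called 1.54% of all features. It read 7.52, 7.84 and 7.55 in Terc-/- arrays, against 6.89, 6.35 and 8.05 in Terc+/+ arrays, so that array was above all of Terc-/-. Its difference was 0.54 (limma adjusted p = 0.692) with and 1.02 (limma adjusted p = 0.0440) without that array.

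Among the other H3K9 methyltransferases and their partners, 4 of 6 were measured, with medians of 0.15 in Terc-/- and 0.16 in Terc+/- cells. Ehmt2, the G9a enzyme of euchromatin, read 9.51, 9.33 and 9.41 in Terc-/- arrays, 9.24, 9.54 and 9.51 in Terc+/- arrays, and 9.63, 9.67 and 9.96 in Terc+/+ arrays. It is the one gene of these lists with both mutant genotypes wholly below Terc+/+ at an unadjusted p under 0.05. At any p, 2.88% of all features had both wholly below. The log2 difference was -0.34 in Terc-/- (SE 0.12, limma adjusted p = 0.352) and -0.32 in Terc+/- cells (limma adjusted p = 0.481). Without Terc+/+ replicate 3, the highest Ehmt2 array, it was -0.24 in Terc-/- and -0.22 in Terc+/- cells. A second Ehmt2 probe gave -0.24 in Terc-/- and -0.18 in Terc+/- cells, and the dimmest, near the array medians, -0.019 in Terc-/- and -0.027 in Terc+/- cells.

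Of the HUSH, MORC and SETDB1 partners, 9 of 10 were measured, with medians of 0.059 in Terc-/- and -0.060 in Terc+/- cells. Only 3 of the 9 averaged above 6. Tasor2, a homolog of the HUSH subunit TASOR, averaged 6.90 in Terc-/- and 6.45 in Terc+/+ cells, a difference of 0.45 (SE 0.15, limma adjusted p = 0.344). Morc1, a germline relative of Morc2a, was dim, with all values at or below the array medians: 5.73, 5.75 and 5.80 in Terc-/- arrays, 5.42, 5.56 and 5.54 in Terc+/- arrays, and 5.82, 5.75 and 5.94 in Terc+/+ arrays. Its difference was -0.33 in Terc+/- against Terc+/+ cells (limma adjusted p = 0.223) and 0.25 in Terc-/- against Terc+/- cells (limma adjusted p = 1.00).

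Of the remodelling and H4K20 methylation genes, 6 of 7 were measured, with medians of -0.070 in Terc-/- and -0.027 in Terc+/- cells. Kmt5b, a histone H4 methyltransferase of heterochromatin, gave 0.31 in Terc-/- (SE 0.08, limma adjusted p = 0.226) and 0.22 in Terc+/- cells (limma adjusted p = 0.524), with no overlap with Terc+/+ in either. Of its other probes, the brighter gave 0.35 and the dimmer -0.14 in Terc-/- cells, so the Kmt5b probes disagree. Of the KRAB zinc finger genes, 3 of 6 were measured, with medians of 0.049 in Terc-/- and 0.044 in Terc+/- cells. Zfp819 averaged 8.91 ± 0.48 in Terc-/- and 8.22 ± 0.36 in Terc+/+ cells (SD, n = 3 each), with arrays that overlapped (0.68, limma adjusted p = 0.396). The remaining lists held no gene with an unadjusted p under 0.05: 9 of 12 H3 variant and chaperone genes were measured (medians 0.038 in Terc-/- and 0.068 in Terc+/- cells), 8 of 9 HP1 partners (0.041 in Terc-/- and 0.084 in Terc+/- cells) and 4 of 5 Polycomb chromobox paralogs (-0.10 in Terc-/- and 0.017 in Terc+/- cells).

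**Figure D4:**
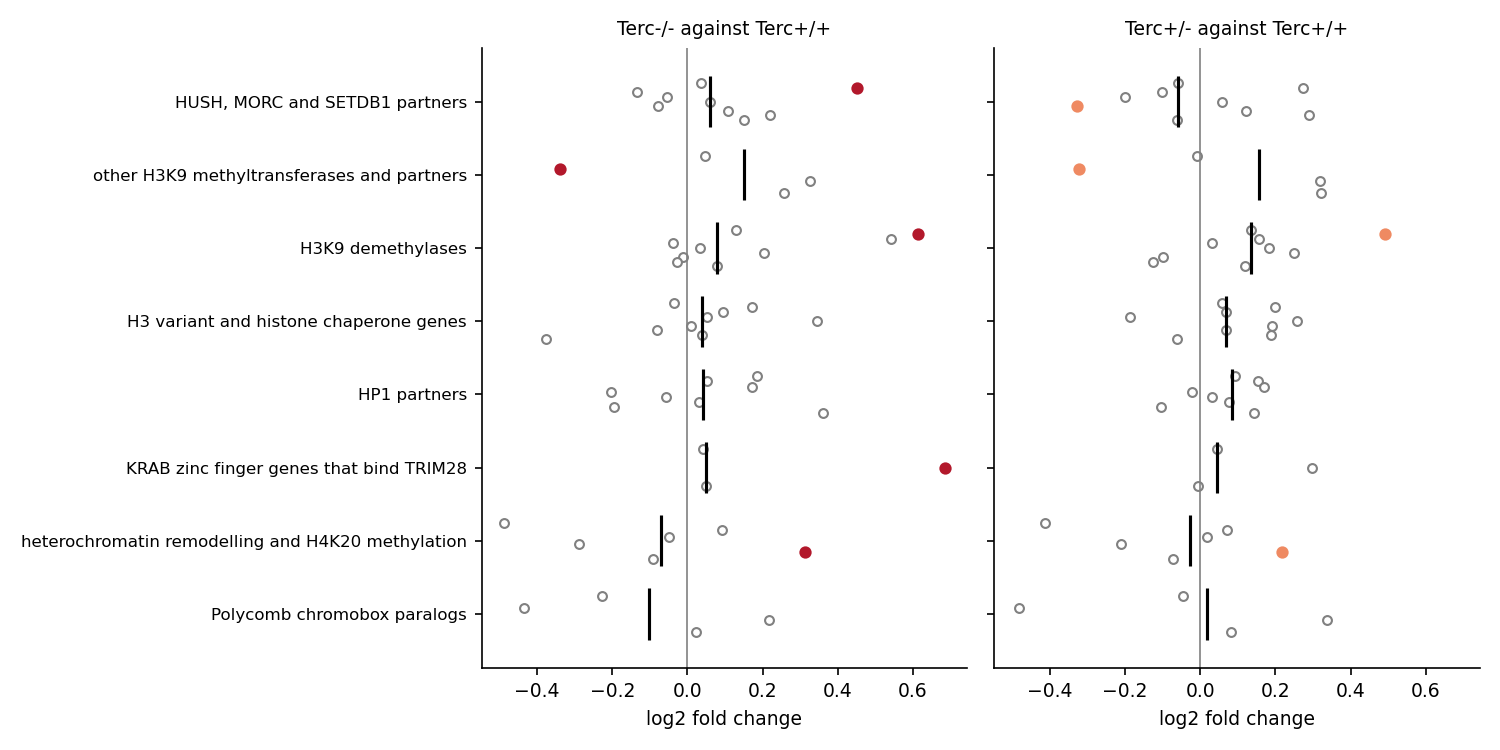
Log2 differences of the measured genes of 8 related lists in the comparisons between genotypes; a dot is a gene, a filled colour marks an unadjusted p under 0.05, and the black bar is the list's median. The list medians lie between -0.10 and 0.16 against Terc+/+, and none of the 52 genes passed at an adjusted p under 0.05.

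The genes whose values ran most like those of Morc2a were sought among 8261 named genes averaging above 6, by Pearson's r over the 9 arrays. The arrays share their genotypes and their normalization, so r is a description. The 5 highest were Ddx3x (0.982), an RNA helicase gene, Dcun1d1 (0.976), whose product promotes the neddylation of cullins, Cops3 (0.973), a subunit of the COP9 signalosome, Gpd2 (0.972), the mitochondrial glycerol-3-phosphate dehydrogenase, and Cdc42se1 (0.962), a small effector of CDC42. Ddx3x read 10.71, 10.84 and 10.61 in Terc-/- arrays, 10.51, 10.52 and 10.48 in Terc+/- arrays, and 10.00, 9.87 and 9.70 in Terc+/+ arrays. As with Morc2a, its 3 genotypes did not overlap. The 5 genes were picked for their likeness to Morc2a over these same arrays, so a shared order of the genotypes is no result. Gpd2 averaged 9.84 in Terc-/-, 9.59 in Terc+/- and 9.13 in Terc+/+ cells, and Cops3 averaged 12.08 in Terc-/-, 12.03 in Terc+/- and 11.66 in Terc+/+ cells. A second, dimmer Gpd2 probe gave a difference of 0.47 in Terc-/- against Terc+/+ cells, where the brighter gave 0.71. The Cdc42se1 probes disagreed: in Terc-/- against Terc+/+ cells the brighter gave 0.27 and a dimmer one, averaging 7.43, gave -0.064. In Terc+/- against Terc+/+ cells they gave 0.15 and -0.032. Among the other members, r with Morc2a was 0.775 for Cbx3, which ranked 357 of the 8261, and lay between -0.396 (Trim28) and 0.655 (Setdb1) for the rest.

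**Figure D5:**
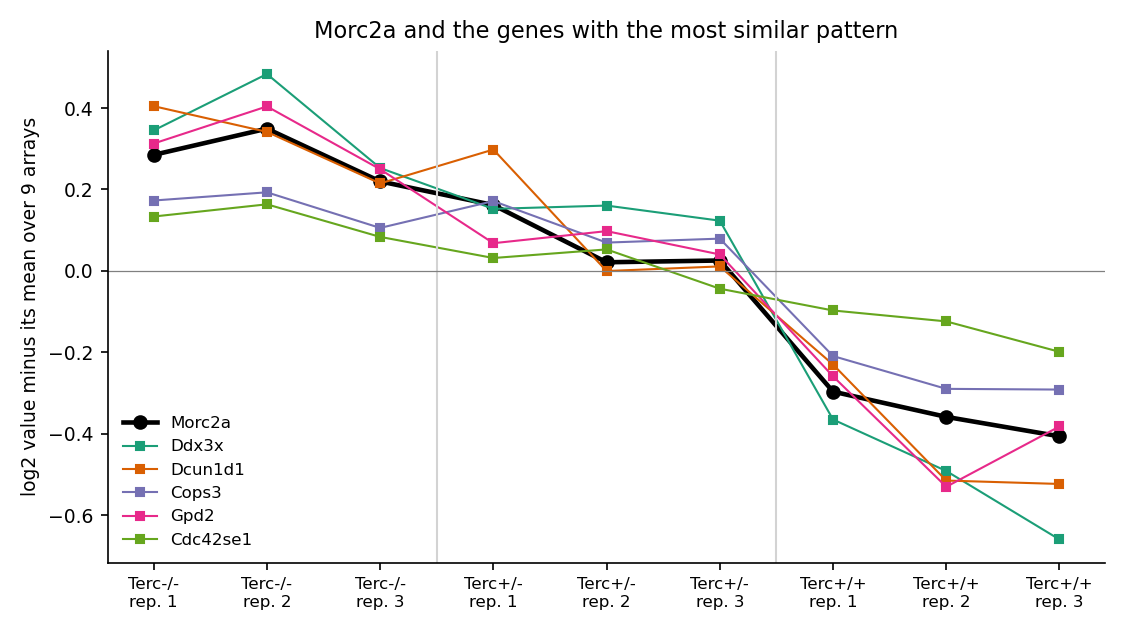
Log2 value minus the gene's mean over the 9 arrays, for Morc2a and the 5 genes most like it, by genotype and replicate; lines only join the values of a gene. All 6 genes average highest in Terc-/- and lowest in Terc+/+ cells. The 5 genes were picked for their likeness to Morc2a over these arrays, so the shared order is no result.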

How the data were processed

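Bead-array expression was measured in 9 ntESC samples, grouped by the genotype in their labels. The log2 values analysed are those the authors deposited, 1 per probe and array. Neither unit nor processing is stated by the labels: log2 was read from the values, whose near-equal column medians are those of normalized arrays. Background correction and software are not given in the sources used here. Array pairs correlated at 0.950 to 0.995 (36 pairs), so no pair of arrays held identical values. A table of raw signals was not used here: its 18 columns match no sample label, and detection p-values could not be tied to samples.

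The main test was limma 3.58.1 (R 4.3.3), with the 3 genotypes in 1 linear model and moderated variances (6 residual degrees of freedom), over 18666 features, two-sided, with Benjamini-Hochberg adjustment over all features of a comparison and a threshold of 0.05. The code was tested on simulated data. No expression filter was set, and the number of arrays limits the precision. Named genes were all members, the genes of the lists with an unadjusted p under 0.05 (up to 10 a comparison) and the 5 most like Morc2a. Members and lists were chosen with earlier results of these data known. Probes were named from the platform annotation, all 23141 named probes matched RefSeq genes (GRCm38.p6) by Entrez identifier, and Tasor2 was listed as Fam208b. Alternatives changed the probe rule, the filter on dim features, the variance model, array weights, the normalization, the arrays in the fit, a replicate block and a fibroblast covariate.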

Additional observations from a re-analysis of the deposited data

How the results depend on the processing

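Counts of calls depended on the setting. The 10 features called in Terc-/- against Terc+/+ cells became 5 with the mean of all probes of a gene, 31 with cyclic loess, 155 with the fibroblast score as a covariate and 2999 with array quality weights, but 0 with only features averaging above 6, with trend and robust variance, with only the 6 arrays of the pair and with the replicate block. Leaving out 1 array gave 0 to 287, the highest without Terc+/+ replicate 3. In Terc+/- against Terc+/+ cells the count of 0 became 643 with array weights, 236 with the covariate and 0 to 28 with 1 array left out, the highest again without Terc+/+ replicate 3. It stayed at 0 in Terc-/- against Terc+/- cells under every alternative run. At an unadjusted p under 0.05, limma had 1603 features in Terc+/- against Terc+/+ and 328 in Terc-/- against Terc+/- cells.

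Of the members, the 1 called in Terc-/- against Terc+/+ cells, Morc2a, became 0 with the filter on dim features, the trend and robust variance, the 6 arrays and the replicate block, became 4 with array weights, and was 0 to 1 with 1 array left out, being called only without Terc+/+ replicate 3. Its difference stayed between 0.61 and 0.67, with limma adjusted p from 0.00144 to 0.267. In Terc+/- against Terc+/+ cells 0 became 1, Morc2a, with array weights and with the covariate. Of 486 differences of members under alternatives, 480 moved by under 1 residual SD, and 26 had another sign, none of a called value. Many of these alternatives cannot move a difference. The filter on dim features, the variance model, the 6 arrays and the replicate block change only its SE and p. Leaving out an array of the genotype outside the comparison does the same. The 480 is therefore no measure of how stable the differences are. With array weights Terc+/+ replicate 1 has a weight of 7.01, so that fit rests largely on 1 Terc+/+ array. The replicate numbers are shared by the genotypes, but the 9 same-numbered pairs correlated at -0.602 to 0.447, 2 of them over 0.1, so the numbers were not taken as pairs. Raw-signal background correction, the detection filter and the chip block were not run, since those columns match no sample label. The small number of arrays and the dim Atrx, Cbx3 and Suv39h2 probes limit what could be detected.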
